A study of Mus musculus with 8 samples.

Results

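The immunoglobulin kappa V segments were taken as every gene of the deposited table whose symbol starts with Igkv followed by a digit. The rule found 102 of 27179 genes. RefSeq (GRCm38.p6) places them on chromosome 6 between 67555636 and 70704177, 38 on the plus and 63 on the minus strand among the 101 matched in GENCODE M21. They belong to 20 sequence families, and the constant gene Igkc lies beside the cluster at 70726435 to 70726754. RefSeq annotates 101 of the members as functional V segments and 1 as a pseudogene. They were chosen by name, so no measured value decided which segments entered.

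A kappa light chain is made when a B lineage cell recombines one V segment with one J segment (Igkj), and the transcript is then spliced to Igkc. The V segment carries most of the antigen contact surface of the light chain, and the joined product is kept by the descendants of that cell. Plasma cells, which secrete antibody and in the gut mostly IgA, carry far more kappa RNA per cell than resting B cells. Lymphoid tissue inducer (LTi) cells are innate lymphoid cells that start the formation of lymphoid tissue and do not rearrange these genes.

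The study sorted LTi cells from C57BL/6 mice by a gate of live cells that lacked lineage markers, KLRG1, NK1.1 and NKp46 and carried CD127 and CCR6. The cells came from Peyer's patches (PP) or from small intestinal lamina propria (LP), and were of Tcf7+/+ mice (wild-type here) or of mice labelled Tcf7-KO, which carry Tcf7fl/fl and a Cre recombinase. Each of the 4 groups had 2 Smart-seq2 libraries, and the labels give no age and do not say whether replicates came from separate mice, so p-values measure only the spread between these libraries. Tcf7 stood at 243 and 85.4 RPKM in wild-type PP, 355 and 337 in PP labelled knockout, 229 and 246 across wild-type LP, then 237 and 215 in LP labelled knockout, so the gene-level RPKM (reads scaled by gene length and library depth) was higher under the knockout label in PP, overlapped in LP and does not check the label.

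All 16 of 16 listed LTi and ILC3 markers were detected at 1 RPKM or more in some library, with a summed level of 7193 to 10818 RPKM across the 8 libraries. Plasma cell markers (14 of 14 detected) summed to 637 to 700 RPKM in wild-type PP, 448 to 564 in PP labelled knockout, 1364 to 2118 across wild-type LP, then 1350 to 1354 in LP labelled knockout. B cell markers (11 of 14 detected, with Pax5, the factor that fixes B cell identity, at 0 in all 8 libraries) summed to 331 to 371, 431 to 510, 93.6 to 140 and 112 to 137 RPKM in the same order. Of the plasma cell list, Jchain (589 to 1180 RPKM) and Xbp1 (390 to 582) were the highest in every LP library, so the LP sums rest mainly on them. Derl3 was instead higher in wild-type PP (64.7 and 53.7 RPKM) than in LP (0.0779 to 16.7). Of the recombinase genes, Rag2 was at 0 in all 8 libraries, and Rag1 reached 2.41 RPKM (wild-type PP 2) with at most 0.0385 in the other 7. Depth, estimated from the value that 1 read takes in single-exon genes, was 38.4 to 44.4 M reads per library. In these bulk libraries, fewer cells of a type and less RNA per cell cannot be told apart, and the part that other cells in the gate have in the kappa V levels was not tested.

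Neighbouring segments can be close copies, so their sequences bear on how far one name can be told from another. The V exons of 98 members could be read from the GENCODE M21 transcripts, with a median length of 303 bases. Median identity was 88.1% within a family and 63.6% between families, and no pair was identical. Of the 40 segments with 50 RPKM or more anywhere, 20 had a relative more than 95% identical. The pairs printed here hold the segments whose values recur in the results. Each is the coding V exon (at most its last 300 bases) on its own strand, on GRCm38, with the bases of the second member that differ from the first in capitals.

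Igkv1-135 (chr6:67610209-67610508, plus strand) led wild-type PP, and Igkv1-133 (chr6:67725362-67725661, plus strand) differs from it at 11 bases, an identity of 96.5%.
Igkv1-135: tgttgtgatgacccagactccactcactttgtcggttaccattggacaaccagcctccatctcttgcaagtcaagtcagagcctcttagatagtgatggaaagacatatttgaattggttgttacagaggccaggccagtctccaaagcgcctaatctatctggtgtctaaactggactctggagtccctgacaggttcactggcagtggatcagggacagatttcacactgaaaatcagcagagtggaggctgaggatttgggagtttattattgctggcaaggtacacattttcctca
Igkv1-133: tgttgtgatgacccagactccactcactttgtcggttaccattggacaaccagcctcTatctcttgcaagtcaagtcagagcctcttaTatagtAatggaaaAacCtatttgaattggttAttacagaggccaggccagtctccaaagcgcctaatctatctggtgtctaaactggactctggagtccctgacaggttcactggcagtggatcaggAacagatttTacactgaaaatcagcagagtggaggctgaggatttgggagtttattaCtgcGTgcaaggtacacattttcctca

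Igkv6-23 (chr6:70260409-70260706, minus strand) was high in LP, and Igkv6-13 (chr6:70457501-70457798, minus strand) differs from it at 12 bases, an identity of 96.0%.
Igkv6-23: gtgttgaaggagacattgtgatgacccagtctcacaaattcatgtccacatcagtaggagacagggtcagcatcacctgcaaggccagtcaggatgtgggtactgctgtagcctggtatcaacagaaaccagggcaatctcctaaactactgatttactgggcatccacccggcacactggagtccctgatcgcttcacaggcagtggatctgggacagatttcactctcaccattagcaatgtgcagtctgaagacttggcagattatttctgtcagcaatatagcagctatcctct
Igkv6-13: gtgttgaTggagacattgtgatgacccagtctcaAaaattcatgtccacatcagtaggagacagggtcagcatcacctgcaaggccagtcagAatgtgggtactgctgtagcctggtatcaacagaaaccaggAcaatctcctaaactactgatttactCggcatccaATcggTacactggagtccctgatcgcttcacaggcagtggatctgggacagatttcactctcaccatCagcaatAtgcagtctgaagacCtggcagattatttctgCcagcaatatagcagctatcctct

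Igkv12-44 (chr6:69814631-69814928, minus strand) separated the genotypes, and Igkv12-41 (chr6:69858420-69858717, minus strand) differs from it at 13 bases, an identity of 95.6%.
Igkv12-44: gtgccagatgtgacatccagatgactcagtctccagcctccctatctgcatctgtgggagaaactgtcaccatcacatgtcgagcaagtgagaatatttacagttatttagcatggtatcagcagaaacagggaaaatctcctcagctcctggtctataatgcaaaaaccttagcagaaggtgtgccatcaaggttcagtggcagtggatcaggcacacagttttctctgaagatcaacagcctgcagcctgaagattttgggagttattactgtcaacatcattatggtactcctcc
Igkv12-41: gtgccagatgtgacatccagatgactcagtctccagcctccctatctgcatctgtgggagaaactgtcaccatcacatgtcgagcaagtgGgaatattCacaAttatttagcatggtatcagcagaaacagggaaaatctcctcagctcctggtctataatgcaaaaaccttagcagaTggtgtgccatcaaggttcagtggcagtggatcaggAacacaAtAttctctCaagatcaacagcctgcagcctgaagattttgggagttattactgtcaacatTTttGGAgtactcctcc

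Igkv17-127 (chr6:67861362-67861659, plus strand) and Igkv17-121 (chr6:68037021-68037318, plus strand) were high together in a single library and differ at 6 bases, an identity of 98.0%.
Igkv17-127: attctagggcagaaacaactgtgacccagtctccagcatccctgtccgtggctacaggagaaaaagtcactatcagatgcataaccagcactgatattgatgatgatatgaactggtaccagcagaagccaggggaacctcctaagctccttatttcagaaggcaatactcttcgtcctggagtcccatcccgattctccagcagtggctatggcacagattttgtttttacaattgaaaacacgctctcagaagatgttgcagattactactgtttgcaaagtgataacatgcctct
Igkv17-121: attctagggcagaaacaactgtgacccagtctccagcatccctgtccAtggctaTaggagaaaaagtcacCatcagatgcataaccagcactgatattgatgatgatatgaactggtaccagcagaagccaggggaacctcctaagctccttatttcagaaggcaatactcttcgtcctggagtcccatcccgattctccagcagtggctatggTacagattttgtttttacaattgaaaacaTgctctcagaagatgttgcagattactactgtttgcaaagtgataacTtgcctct

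Each lower member was highest in the same library as the higher member of its pair. Igkv1-133 stood at 8.97% and 8.35% of the level of Igkv1-135 in the 2 wild-type PP libraries. Igkv6-13 stood at 3.99%, 4.53%, 6.38% and 4.85% of Igkv6-23 in the 4 LP libraries. Igkv17-121 reached 509 RPKM where Igkv17-127 reached 1359 RPKM, in wild-type LP 1. Igkv12-41 never exceeded 0.551% of Igkv12-44 in a wild-type library. No source used here states how reads shared by close copies were counted, so the lower member of each pair is uncertain.

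Kappa V RNA was abundant in every library. The summed level of the 102 segments was 10630 and 10376 RPKM in wild-type PP, 4248 and 3714 in PP labelled knockout, 15286 and 24895 across wild-type LP, then 16329 and 15174 in LP labelled knockout. The PP libraries labelled knockout were the 2 lowest, and the 4 LP libraries were above the 4 PP libraries without overlap. These sums were 0.666% to 4.38% of all RPKM in a library. Igkc, which every kappa transcript shares, moved with them, at 11411 and 11308 RPKM in wild-type PP, 4748 and 4368 in PP labelled knockout, 14590 and 23305 across wild-type LP, then 16054 and 14326 in LP labelled knockout. The ratio of summed V to Igkc stayed between 0.850 and 1.07.

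Few segments made up most of that RNA. The number at 50 RPKM or more, a level taken here as use, was 9 and 10 in wild-type PP, 6 and 6 in PP labelled knockout, 11 and 14 across wild-type LP, then 11 and 11 in LP labelled knockout. The 3 leading segments held 50.5% to 83.8% of the summed kappa V RPKM. The effective number of segments, which is the number of equally used segments that would give the same concentration, ranged from 3.84 in PP labelled knockout 1 to 7.07 in wild-type LP 2. The other end of the list was quiet, with 21 members under 1 RPKM in all 8 libraries and 3 of these at 0 throughout. Just inside the level of use were Igkv14-111 with a highest value of 50.6 RPKM and Igkv4-80 with 52.9, and just outside it Igkv3-7 with 42.7 and Igkv2-109 with 47.6.

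**Figure D1:**
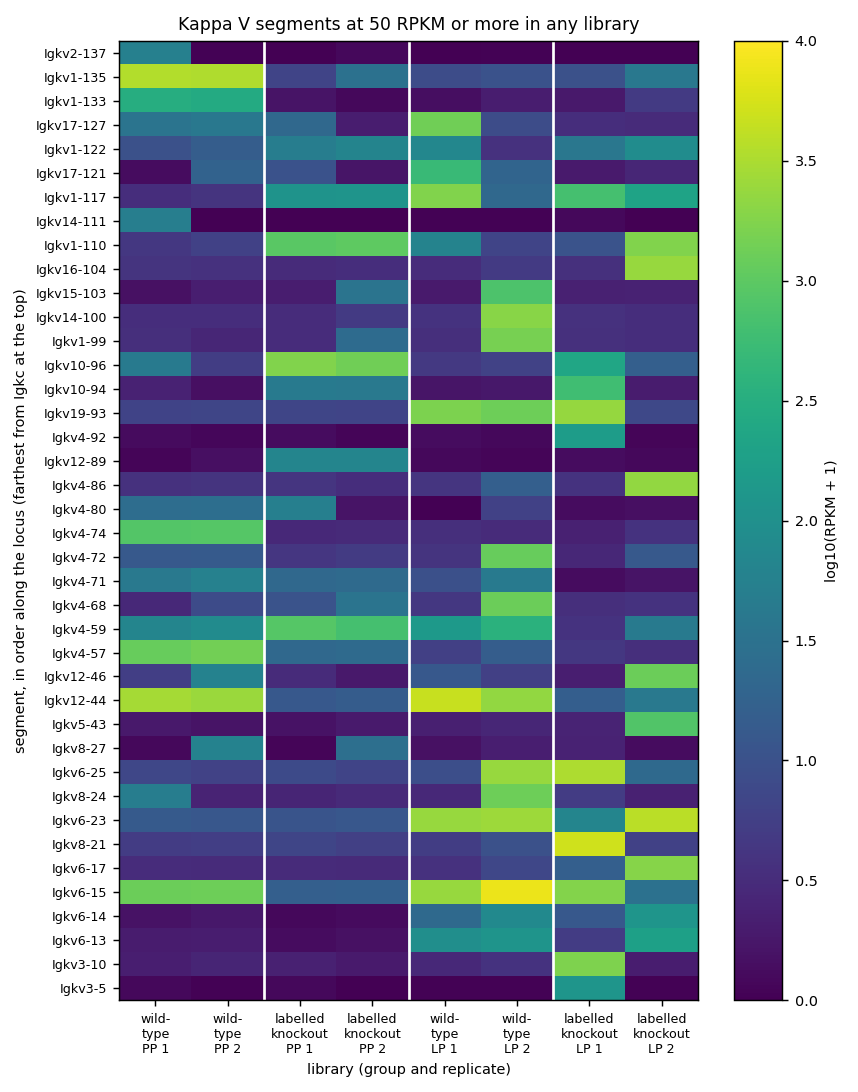
RPKM on a log scale of the 40 segments that reached 50 RPKM, one row per segment in order along the locus and one column per library. Of these segments, 22 reach 50 RPKM in 1 library only, and none does so in more than 6 of the 8.

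The leading segments differed with tissue and genotype in PP and from library to library in LP. Igkv1-135 led both wild-type PP libraries with 32.4% and 32.3% of kappa V RPKM, followed by Igkv12-44 with 27.6% and 23.8%. In PP labelled knockout, Igkv10-96 led with 40.6% and 36.7%, followed by Igkv1-110 with 22.5% and 27.3% and Igkv4-59 with 20.7% and 18%. The PP replicates thus shared their first segments, and the genotypes did not share a leading segment. In LP each library had a leader of its own: Igkv12-44 with 30.6% in wild-type LP 1, Igkv6-15 with 30.3% in wild-type LP 2, Igkv8-21 with 31.4% in LP labelled knockout 1 and Igkv6-23 with 25.4% in LP labelled knockout 2.

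**Figure D2:**
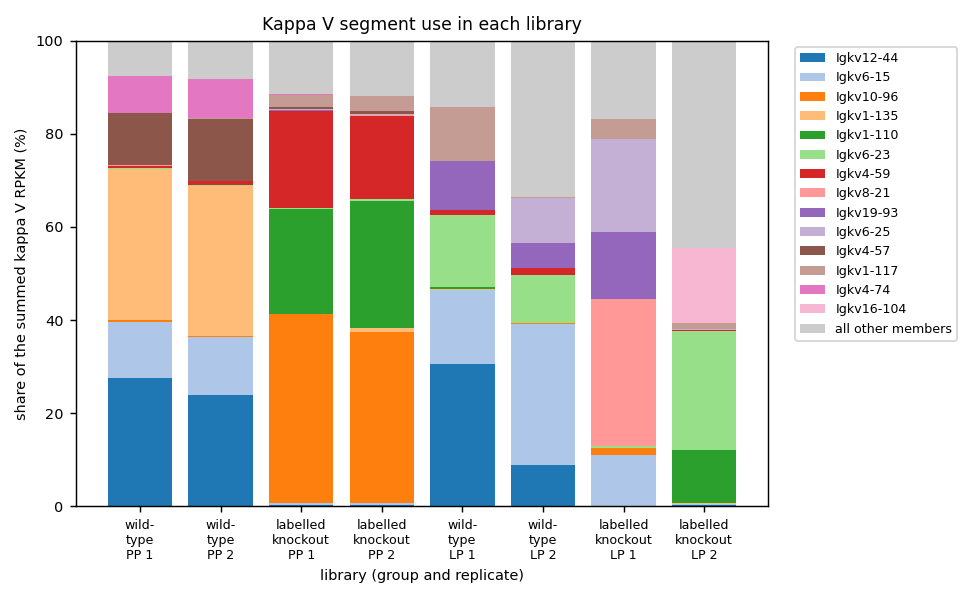
Share of the summed kappa V RPKM (percent, linear axis from 0 to 100) held by the leading segments in each of the 8 libraries, the rest stacked as others. The wild-type PP bars look alike, as do the bars of PP labelled knockout, while the LP bars differ within each replicate pair.

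Most used segments were used in a single library. Among the 40 used segments, 22 reached 50 RPKM in exactly 1 library, 8 in 2, 4 in 3, 3 in 4, 2 in 5 and 1 in 6. The segment that reached it in 6 libraries was Igkv4-59. Replicates shared 7 of 12 used segments in wild-type PP (58.3%), 5 of 7 in PP labelled knockout (71.4%), 6 of 19 across wild-type LP (31.6%) and 2 of 20 in LP labelled knockout (10%). Between tissues, 18 segments were used in PP and 30 in LP, and the 8 used in both were 44.4% of the PP list and 26.7% of the LP list. Between genotypes, 28 were used in wild-type and 23 in labelled knockout, and the 11 in both were 39.3% and 47.8% of these lists.

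The similarity of a pair of libraries was measured as shared use, the sum over segments of the smaller of the 2 shares, which is 100% for the same proportions and 0% for no common segment. Replicates shared 93.6% in wild-type PP, 88.7% in PP labelled knockout, 43.0% across wild-type LP, then 3.13% in LP labelled knockout. The PP replicate pairs were above every pair from different groups (at most 41.5%), whereas the LP replicates labelled knockout shared less than every one of the 8 pairs of the same tissue and other genotype. Those 8 pairs shared 4.43% to 27.1%, with 4.43% to 5.67% in PP and 12.8% to 27.1% in LP. Pairs of one genotype from the 2 tissues shared 23.3% to 41.5% in wild-type and 6.96% to 15.4% in labelled knockout. The heavy chain V segments gave replicate values of 90.1%, 93.7%, 55.7% and 16.5% in the same group order, so LP replicates were also the less alike there. Computed on log2(RPKM + 1), which gives low segments more weight, kappa V values were 83.2%, 79.9%, 64.4% and 46.7%, in the same order of groups.

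**Figure D3:**
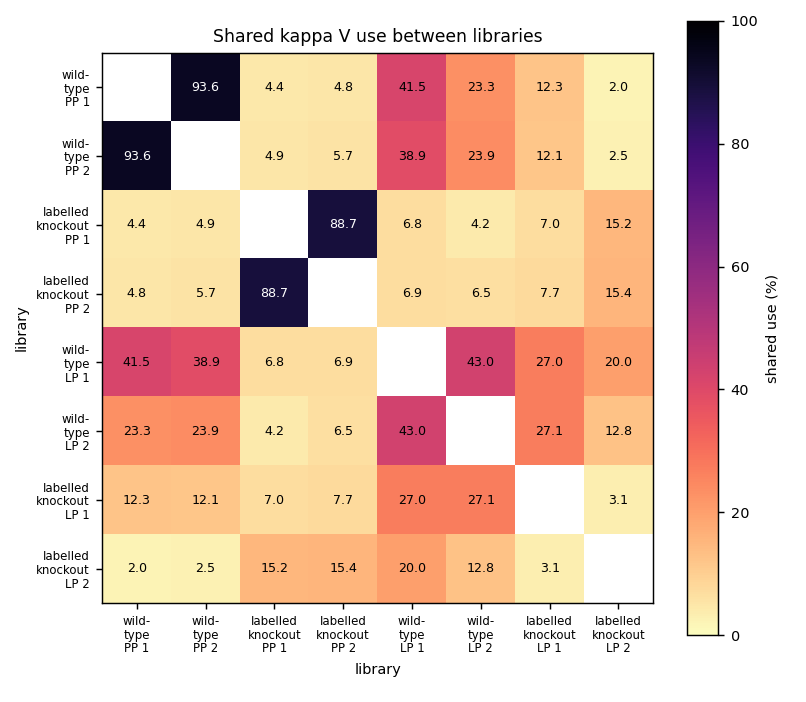
Shared kappa V use in percent for every pair of the 8 libraries, with the groups in order along both axes. The PP replicate pairs reach 93.6% and 88.7%, and the LP pair labelled knockout reaches 3.13%.

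Within replicate pairs, 4 of 12 used segments in wild-type PP were at least 10-fold apart on the RPKM + 1 scale (20.3% of all genes at 50 RPKM or more in either replicate). In PP labelled knockout it was 1 of 7 (5.76% of all genes), in wild-type LP 11 of 19 (3.03%) and in LP labelled knockout 17 of 20 (8.14%). The median fold between replicates was 1.24, 1.27, 25.8 and 142 for the kappa V segments and 1.98, 1.57, 1.36 and 1.63 for all genes at that level. The kappa V median thus lay below that of all genes in PP and above it in LP. In wild-type PP the 4 segments that differed were all under 60 RPKM: Igkv14-111 stood at 50.6 and 0 RPKM and Igkv2-137 at 53.8 and 0.0622. In PP labelled knockout it was Igkv4-80, at 52.9 and 0.643 RPKM.

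Some abundant LP segments were low in the other replicate. Igkv14-100 stood at 2.87 and 1933 RPKM in the 2 wild-type LP libraries and Igkv8-24 at 1.85 and 1294. Igkv8-21 stood at 5133 and 4.85 RPKM in the 2 LP libraries labelled knockout and Igkv3-10 at 1674 and 1.06. In each of these cases a single library held the segment at 1294 RPKM or more and the other 7 libraries stood under 50 RPKM. The 3 leaders of wild-type LP 1 were nearer between its replicates, with Igkv12-44 2.10-fold, Igkv6-15 3.09-fold and Igkv6-23 1.09-fold apart. Igkv16-104 and Igkv4-86 were again high in a single library, at 2441 and 2241 RPKM in LP labelled knockout 2 and at most 3.74 and 15.2 elsewhere.

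**Figure D4:**
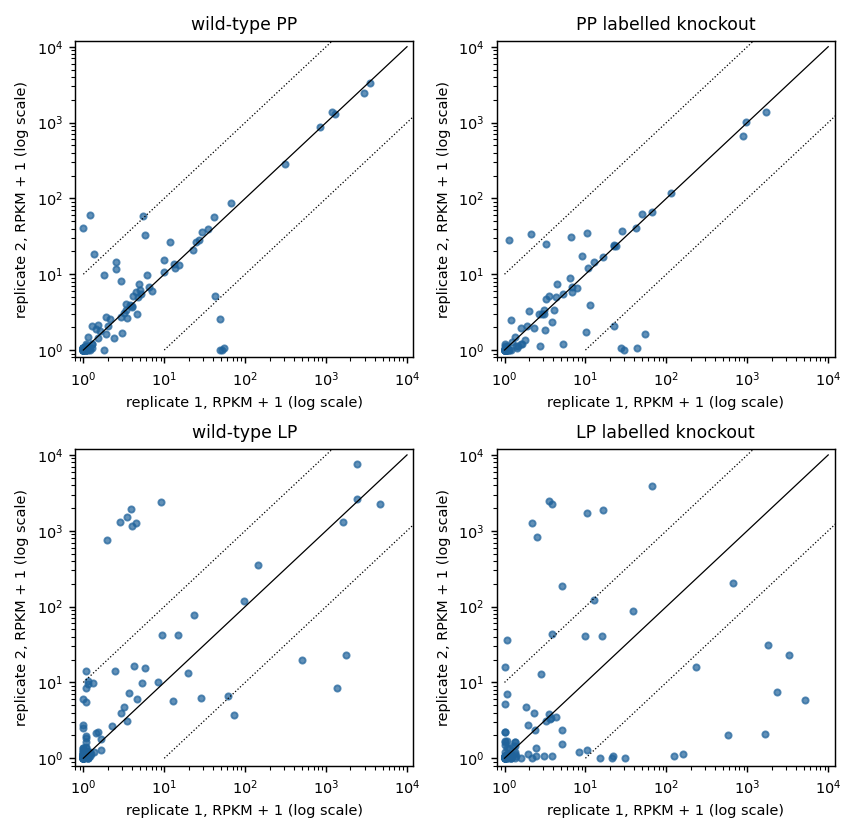
Replicate 2 against replicate 1 for the kappa V segments in each of the 4 groups, both axes RPKM + 1 on a log scale. Of the used segments, 4 of 12 in wild-type PP, 1 of 7 in PP labelled knockout, 11 of 19 in wild-type LP and 17 of 20 in LP labelled knockout lie at least 10-fold off the diagonal.

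Differences between groups were tested with limma on log2(RPKM + 1) over the 10541 genes that reached 1 RPKM in at least 2 libraries, with Benjamini-Hochberg adjustment over all of them and an adjusted p under 0.05 as the threshold. Of the members, 63 passed this filter and 39 did not. Of the 63, 11 reached 1 RPKM in the libraries of a single group only, so they entered through that group and had to differ from the others. Fold changes are on the log2(RPKM + 1) scale, which understates the change of low genes.

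In PP, 5 of 63 segments fell in the libraries labelled knockout (0.0949% of all genes tested fell) and 0 rose (0.266%). Igkv12-44 stood at 2936 and 2473 RPKM in wild-type and at 11.7 and 13.7 in labelled knockout, a difference of -7.62 ± 0.54 (SE; limma adjusted p = 0.00314). Igkv1-135 stood at 3444 and 3349 against 5.71 and 30.1 RPKM (-7.88 ± 0.92, limma adjusted p = 0.0264). Both were the leading segments of wild-type PP and stood at 30.1 RPKM or less in labelled knockout. Igkv4-74 stood at 839 and 869 against 1.88 and 2.01 RPKM (-8.18 ± 0.83, limma adjusted p = 0.0152). Igkv4-57 stood at 1187 and 1386 against 21.2 and 22.8 RPKM (-5.80 ± 0.68, limma adjusted p = 0.0264). The fifth was Igkv1-133, the close copy of Igkv1-135, at 309 and 280 against 0.643 and 0.206 RPKM (-7.71 ± 1.05, limma adjusted p = 0.0427).

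The segments that led PP labelled knockout did not pass. Igkv10-96 stood at 41.6 and 4.24 RPKM in wild-type and 1725 and 1363 in labelled knockout, and Igkv1-110 at 3.52 and 4.85 against 957 and 1014. In 14 segments the labelled knockout libraries were both above the wild-type ones (22.7% of all genes), and in 28 both were below (14.8%). These counts hold all 11 segments that entered through a single group. That group was a PP group in each case, so they had to be apart, and the counts are given as a description. The members' median difference was -0.52, against 0.16 over all genes tested. The count of 5 fell to 0 without either PP library labelled knockout, to 1 without either wild-type PP library or wild-type LP 2, and to 2 without wild-type LP 1. With these 2 groups fitted alone, 4 fell and 1 rose, and 3 of the 5 segments remained (Igkv1-135 and Igkv1-133 had a limma adjusted p of 0.165). With no filter on low values, 6 fell and 1 rose, and 4 of the 5 remained.

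In LP, Igkv12-44 alone among 63 segments passed, and it fell in the libraries labelled knockout (0.0285% of all genes fell, and 0% rose). It stood at 4675 and 2228 RPKM across wild-type LP, then 14.9 and 40.0 in labelled knockout, a difference of -6.98 ± 0.54 (limma adjusted p = 0.0226). In 5 segments both labelled knockout libraries were above the wild-type ones (15.3% of all genes) and in 14 both were below (20.3%). The members' median difference was -0.11, against -0.06 over all genes. Next by p were Igkv12-41 (18.4 and 12.3 against 0.274 and 0.440 RPKM) and Igkv4-55 (13.9 and 41.7 against 0.203 and 0.145), which did not pass (limma adjusted p = 0.424 and 0.434). The Igkv12-44 call in LP was lost (count 0) when any one of wild-type PP 1, wild-type LP 1 or 2, PP labelled knockout 1 or 2, or LP labelled knockout 1 was left out, and also with a pseudocount of 0.1 and with these 2 groups fitted alone.

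With both tissues fitted together, Igkv12-44 was again the 1 of 63 segments that passed for genotype, lower in labelled knockout (0.00949% of all genes fell, and 0% rose). Its difference was -7.30 ± 0.37 (limma adjusted p = 1.69e-05), with all 4 wild-type libraries at 2228 RPKM or more and all 4 libraries labelled knockout at 40.0 or less. Without LP labelled knockout 1 the count was 3 and without LP labelled knockout 2 it was 2. Igkv6-15 stood at 1277 and 1312 RPKM in wild-type PP, 15.5 and 16.1 in PP labelled knockout, 2439 and 7546 across wild-type LP, then 1799 and 30.6 in LP labelled knockout. It was low in 3 of 4 libraries labelled knockout and did not pass (-5.22, limma adjusted p = 0.331), and neither did Igkv10-96 (5.11, limma adjusted p = 0.331). In 1 segment all libraries labelled knockout were above all wild-type ones (1.66% of all genes) and in 3 all were below (1.24%).

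Between tissues in wild-type mice, 5 of 63 segments fell in LP relative to PP (0.787% of all genes) and 0 rose (1.34%). Igkv4-57 was at 1187 and 1386 RPKM in PP and 4.73 and 14.3 in LP (-7.10 ± 0.68, limma adjusted p = 0.0062), and Igkv4-74 at 839 and 869 against 2.47 and 2.07 (-8.03 ± 0.83, limma adjusted p = 0.00779). Igkv1-135 was at 3444 and 3349 against 7.40 and 9.09 RPKM (-8.53 ± 0.92, limma adjusted p = 0.00938). These 3 segments also fell with the genotype in PP, and both comparisons share the wild-type PP libraries. Igkv1-133 fell as well (-7.40 ± 1.05, limma adjusted p = 0.0227). The fifth, Igkv1-131 (21.6 and 19.9 against 0.0719 and 0.211 RPKM), reached 1 RPKM only in wild-type PP, so it had to differ and is given as a description. The count was 0 without either wild-type LP library and 3 without either wild-type PP library or PP labelled knockout 1, and 8 with no filter on low values. With these 2 groups fitted alone, 2 fell and 2 rose, and 2 of the 5 remained. In 18 segments both LP libraries were above the PP ones (26% of all genes) and in 19 both were below (21.4%). Those below include Igkv1-131, Igkv9-124, Igkv9-120, Igkv4-60, Igkv4-58, Igkv4-51 and Igkv4-62. Each of these reached 1 RPKM only in wild-type PP and had to be below, so the count of 19 is given as a description.

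In mice labelled knockout, 4 of 63 segments passed as lower in LP than in PP (1.07% of all genes) and 0 as higher (0.93%). Of these 4, 3 reached 1 RPKM only in PP labelled knockout, so they had to differ and are given as a description. Igkv13-85 stood at 22.7 and 22.5 RPKM in PP and at 0 in both LP libraries. Igkv12-89 stood at 65.9 and 64.6 against 0.351 and 0.226 RPKM. Igkv6-32 stood at 26.9 and 36.0 against 0.342 and 0.147 RPKM. None of these 3 segments exceeded 0.466 RPKM outside PP labelled knockout. The remaining segment, Igkv4-59, stood at 879 and 667 against 2.83 and 42.0 RPKM (-5.90 ± 1.06, limma adjusted p = 0.0443). Leaving out any single PP or wild-type LP library gave a count of 0, and leaving out LP labelled knockout 1 gave 1. A pseudocount of 0.1 gave 1, no filter on low values 2, and a fit of these 2 groups alone 0. In 13 segments both LP libraries were above the PP ones (17.5% of all genes) and in 19 both were below (28.1%). Those below include Igkv13-85, Igkv12-89, Igkv6-32 and Igkv13-84. Each of these reached 1 RPKM only in PP labelled knockout and had to be below.

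With both genotypes fitted together, 4 of 63 segments rose in LP (2.3% of all genes rose) and 1 fell (2.03%). Igkv6-23 stood at 12.5, 11.1, 9.76 and 11.2 RPKM in the 4 PP libraries and at 2387, 2596, 65.7 and 3860 in the 4 LP libraries (6.54 ± 1.02, limma adjusted p = 0.00516). Igkv6-13, its close copy, stood at 1.01, 1.07, 0.362 and 0.487 against 95.3, 118, 4.19 and 187 RPKM (5.08 ± 1.12, limma adjusted p = 0.0308). Both were lower in every PP library than in every LP library, with LP labelled knockout 1 the lowest LP library for each. Igkv6-14 stood at 0.224 to 0.778 RPKM in PP and at 22.4, 77.3, 11.6 and 122 in LP. It reached 1 RPKM only in LP libraries, so it had to come out higher there and is given as a description. Igkv19-93 stood at 5.47 to 5.84 RPKM in PP and at 1620, 1303, 2356 and 6.38 in LP (6.03 ± 1.46, limma adjusted p = 0.0464), so that LP labelled knockout 2 was near the PP level. Igkv4-57 fell (-4.83 ± 0.88, limma adjusted p = 0.0125). In 7 segments all LP libraries were above all PP ones (6.54% of all genes) and in 2 all were below (7.05%). Igkv6-14, which had to come out higher, is among the 7. The count of 5 became 1 without wild-type LP 2, 2 without either PP library labelled knockout or wild-type LP 1, and 3 without wild-type PP 1 or LP labelled knockout 2. With no filter on low values it was 0.

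Whether the genotype difference itself differed between the tissues was tested as an interaction. Under limma, 0 of 63 segments passed (0.0285% of all genes), and 15 of 63 had an unadjusted p under 0.05 (8.75% of all genes). Among the 15 were Igkv13-85, Igkv13-84, Igkv12-89, Igkv6-32, Igkv1-131, Igkv4-60, Igkv9-120, Igkv4-58 and Igkv4-51. Each of these entered through a single PP group and had to differ, so the count of 15 is given as a description. A pseudocount of 5 or no filter on low values gave 1 passing segment each. The smallest limma adjusted p among segments was 0.116, for Igkv1-135 (9.0 ± 1.30) and Igkv4-74 (8.07), followed by Igkv1-133 (8.47, limma adjusted p = 0.207). That Igkv1-135 passed in PP and not in LP is therefore no shown difference between the tissues.

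By family, family 6 held 12.2% and 12.8% of kappa V RPKM in wild-type PP, 1.45% and 1.93% in PP labelled knockout, 32.4% and 51.3% across wild-type LP, then 31.9% and 40.4% in LP labelled knockout. All 4 LP libraries were above all 4 PP libraries. Family 1 held 35.7%, 35.4%, 26.5% and 33.6% in the PP libraries and 12.4%, 6.32%, 4.47% and 13.6% in the LP libraries, the opposite order and again without overlap. The PP share of family 1 was mostly Igkv1-135 in wild-type and Igkv1-110 in labelled knockout, so the same family share rested on other members. Family 4, with 28 members the most numerous, held 21.3% to 25.1% in PP and 1.09% to 15.2% in LP.

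Among the 6 constant and joining genes of the kappa locus, 1 rose with the genotype in PP (0.266% of all genes) and 0 fell (0.0949%). Over both genotypes, 3 of them rose in LP (2.3% of all genes) and 0 fell (2.03%). Igkc was lower in PP labelled knockout and did not pass (-1.32, limma adjusted p = 0.0617). The joining segment Igkj4 stood at 4.05 and 5.92 RPKM in wild-type PP, 214 and 264 in PP labelled knockout, 528 and 517 across wild-type LP, then 173 and 154 in LP labelled knockout. It was the one that rose with the genotype in PP (5.34 ± 0.38, limma adjusted p = 0.00314). In LP its genotype difference was -1.67, which did not pass (limma adjusted p = 0.347), and its interaction passed (-7.01, limma adjusted p = 0.0182). Igkc rose in LP over both genotypes (1.22, limma adjusted p = 0.00755), and so did Igha, the IgA constant gene, at 1368 to 1939 RPKM in PP and 7896 to 13349 in LP. Jchain, which links IgA dimers, rose as well (2.02), while Ighm, the IgM constant gene, fell (-4.14). Ighg2b, the IgG2b constant gene, stood at 1829 and 2498 RPKM in wild-type PP, above Igha, at 363 and 370 in PP labelled knockout and at 4.70 to 65.0 in LP, and it fell in LP (-5.65, limma adjusted p = 0.0057). Of the plasma cell list, 2 of 12 genes tested rose in LP over both genotypes and 0 fell (2.3% and 2.03% of all genes). Of the B cell list 0 of 9 passed there (limma; median -2.09, against -0.10 over all genes), while 1 of 9 fell in LP in wild-type and 2 of 9 in labelled knockout (0.787% and 1.07% of all genes). The kappa part of light chain constant RNA was 88.2% and 85.0% in wild-type PP, 95.7% and 94.9% in PP labelled knockout, 75.7% and 82.2% across wild-type LP, then 97.9% and 79.1% in LP labelled knockout.

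Highly used segments were not at 0 in any library. Of the 28 segments that reached 500 RPKM, the lowest library stood at 0.363 to 15.5 RPKM and was at 0 in none. That lowest value was 0.0576% to 0.151% (median 0.0932%) of the summed RPKM of the other 7 libraries. Across these 28 segments the log10 values had a Pearson r of 0.969, a description over segments that share the same 8 libraries. For Igkv12-44 the lowest value, 11.7 RPKM in PP labelled knockout 1, was 0.0945% of that sum, and for Igkv1-135 it was 0.083%. The 26 heavy chain V segments at that level gave a median of 0.0811%, and 106 genes of the whole table with a lowest library under 50 RPKM gave 0.103%, immunoglobulin genes included. The 45 of them outside the immunoglobulin loci gave a median of 0.655% with quartiles of 0.106% and 1.42% and an r of -0.14 (44 genes above 0). Their lowest values ran up to 49.9 RPKM, against at most 15.5 for the kappa V segments. Genes expressed in every library are thus among them, and this r cannot decide whether the relation holds there. The headers name 1 sequencing lane for all 8 libraries, and its part in the low values was not tested.

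**Figure D5:**
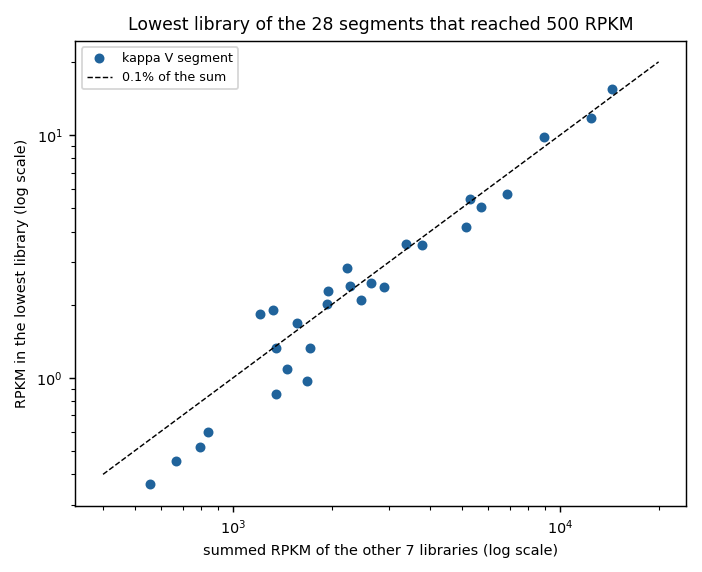
RPKM in the lowest library against the summed RPKM of the other 7 libraries for the 28 segments that reached 500 RPKM, both on log axes, with a dashed line at 0.1% of the sum. The points follow that line, between 0.0576% and 0.151%.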

How the data were processed

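Bulk RNA-seq of sorted LTi cells was deposited by the authors as 1 table of log2(RPKM + 1) values for 27179 genes in 8 libraries. Reads were assigned with Subread and featureCounts on mm10, per the submitters' processing notes. No source used here gives the settings or how reads on close copies were counted. The table holds no counts, so the reads per library are estimates from the smallest step of the values in single-exon genes, and low RPKM values rest on few reads (1 RPKM of a segment of median length, 362 exon bases, is 13.9 to 16.1 reads).

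The deposited values were on a log2(RPKM + 1) scale and were first taken back to RPKM. Tests were run on log2(RPKM + 1) with limma 3.58.1 in R 4.3.3, on genes at 1 RPKM or more in at least 2 libraries. The 4 group means were fitted together, with additive tissue and genotype terms for the averaged effects. Values of 0 are written as 0.0001 in the table and were set to 0. Segments named are the 3 leading ones in each library, those passing each test (up to 10 per direction, or the 3 with the smallest p where fewer than 3 passed), the 2 most discordant per replicate pair and the 5 with the highest minimum; others, such as the close copies, were chosen after their values were seen. The members and gene lists were chosen with earlier results of these data known. Scripts were tested on simulated data. Alternatives were pseudocounts of 0.1 and 5, no filter, median-of-ratios scaling, rescaling without immunoglobulin and mitochondrial genes, a replicate block, fitting only the groups compared and leaving out each library.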

Additional observations from a re-analysis of the deposited data

Results flagged for a closer look

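Of the segments tested, 4 moved in opposite directions between the arms of a comparison, with no overlap of the groups in either arm. The share of all genes that do so was not computed, so this count is no result about the segments. Igkv4-59 was higher in labelled knockout in PP (3.34) and lower in LP (-4.14). By tissue it was higher in LP in wild-type (1.58) and lower in LP in labelled knockout (-5.90). The interaction was -7.48 ± 1.49, with a limma adjusted p of 0.294, so the difference did not pass.

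Igkv1-133 was lower in LP in wild-type (-7.40) and higher in LP in labelled knockout (1.07), the latter between values of 0.206 to 3.72 RPKM. Its interaction was 8.47 ± 1.48 (limma adjusted p = 0.207), and it is a close copy of Igkv1-135. Igkv4-55 was higher in LP in wild-type (1.28) and lower in labelled knockout (-2.50), with no library above 41.7 RPKM and a limma adjusted p of 0.564 for the interaction. Igkv4-68 was higher in labelled knockout in PP (1.98; 9.40 and 34.0 against 1.89 and 7.10 RPKM) and lower in LP (-4.36; 2.50 and 2.82 against 3.47 and 1260 RPKM), with a limma adjusted p of 0.696 for the interaction.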

How the results depend on the processing

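Segments passing were 5 for genotype in PP, 1 for genotype in LP, 5 for tissue in wild-type, 4 for tissue in labelled knockout, 0 for the interaction, 1 for the averaged genotype and 5 for the averaged tissue effect. A pseudocount of 0.1 gave 0 for genotype in LP and 1 for tissue in labelled knockout, and one of 5 gave 1 for the interaction. With no filter the counts were 8 for tissue in wild-type, 2 for tissue in labelled knockout, 1 for the interaction and 0 for the averaged tissue effect. Fitting only the 2 groups compared gave 0 for genotype in LP and for tissue in labelled knockout. Leaving out each library in turn gave 0 to 4 for genotype in PP, 0 to 1 for genotype in LP, 0 to 6 for tissue in wild-type, 0 to 4 for tissue in labelled knockout, 0 to 0 for the interaction, 1 to 3 for the averaged genotype and 1 to 4 for the averaged tissue effect. Igkv12-44 passed for the averaged genotype effect in 14 of 14 alternatives (limma adjusted p 6.48e-06 to 0.0179), for genotype in PP in 13 of 15 (0.0022 to 0.0815) and for genotype in LP in 6 of 15 (0.00546 to 0.829). No segment that passed the main fit reversed, and named segments that did not pass were not followed through the alternatives. Median-of-ratios scaling moved the median of all genes for genotype in PP from 0.16 to -0.07 and kept all 5 segments.

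Replicate numbers showed no pairing of the libraries over all genes: deviations of same-numbered libraries correlated at -0.0214 to 0.0103 over 10541 genes. Over the 63 segments tested the correlations were -0.193 to 0.368, the highest between PP labelled knockout and wild-type LP. With the replicate block, the counts were 2 for genotype in PP, 0 for genotype in LP, 3 for tissue in wild-type and 0 for tissue in labelled knockout.

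Shared use between replicates in wild-type PP, PP labelled knockout, wild-type LP and LP labelled knockout was 93.6%, 88.6%, 42.4% and 3.21% as a share of reads, and 83.2%, 79.9%, 64.4% and 46.7% on the log2 scale. It was 93.9%, 88.7%, 43.3% and 3.04% without Igkv12-44, the segment with the largest mean share. With 2 libraries per group, spread is poorly known.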

Other observations

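The part of kappa V RPKM held by the segments farther from Igkc differed between the genotypes in PP and overlapped in LP. Ordered by position, the 51 segments farther from Igkc held 47.4% and 46.9% of kappa V RPKM in wild-type PP and 74.8% and 77.9% in PP labelled knockout, so the genotypes did not overlap in PP. In LP it held 35.5% and 32.6% in wild-type and 25.1% and 44.8% in labelled knockout, which overlap. The leaders of PP labelled knockout, Igkv10-96 and Igkv1-110, lie among the 51, as does Igkv1-135, the leader of wild-type PP. These shares thus rest largely on few segments, and no test was run on them.

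Some lambda genes set LP labelled knockout 1 apart from the other LP libraries, and others did not. Iglv1, a lambda V segment, stood at 5262, 5389, 370 and 4057 RPKM in the 4 LP libraries, and Iglj1, a lambda joining segment, at 281, 591, 1.88 and 186. Iglc1, a lambda constant gene, stood at 4501 and 4744 RPKM in wild-type LP, 63.8 in LP labelled knockout 1 and 3601 in LP labelled knockout 2. The lambda constant genes Iglc2 (140, 124, 111 and 120 RPKM) and Iglc3 (51.7, 182, 164 and 61.9) did not set that library apart. In PP, Iglc1 stood at 1368 and 1639 RPKM in wild-type and 57.4 and 63.2 in labelled knockout, and did not pass (limma adjusted p = 0.296). Of 9 lambda genes tested there, 2 rose with the genotype (0.266% of all genes) and 0 fell. These were Iglj2 (5.75, limma adjusted p = 0.0198) and Iglc2 (4.86, limma adjusted p = 0.0374). Igkj2 stood at 463 and 2115 RPKM in wild-type LP, 667 and 276 in LP labelled knockout and 44.1 to 50.4 in PP. It rose in LP over both genotypes (3.77, limma adjusted p = 0.00237).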
